A study of Homo sapiens with 4 samples.

Results

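H3K27ac peaks were described at the 8 genes *SLC3A2*, *SLC7A5*, *SLC7A6*, *SLC7A7*, *SLC7A8*, *SLC7A10*, *SLC7A11* and *SLC1A5*, which encode the CD98 heavy chain, its light chain partners and a glutamine transporter. A peak was taken as a member when it overlapped the annotated body of one of these genes extended by 5 kb on either side. In sgCtrl 27 of 63699 peaks were members, and in sgSNHG1 20 of 50119 peaks. The annotation held 20007 protein-coding genes.

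The data came from SK-N-BE(2)C, a human neuroblastoma cell line with amplified *MYCN*, in which chromatin carrying histone H3 acetylated at lysine 27 (H3K27ac), a mark of active promoters and enhancers, was immunoprecipitated and sequenced. Every culture had been transfected with a Cas9 construct and a surrogate reporter, selected with puromycin and expanded from sorted single cells, so the groups are clonal lines. The sgCtrl group (labelled wildtype) received a non-targeting guide RNA and the sgSNHG1 group (labelled *SNHG1* knockout) received a pair of guide RNAs against *SNHG1*, a long non-coding RNA, with 2 samples in each group. The authors pooled both samples of a group before calling peaks, which left 1 list per group. Whether the 2 samples of a group came from the same clone is not given in the sources used here. Differences between clones and effects of the depletion cannot be told apart, no spread between replicates can be given, and no difference was tested for significance. The depth per sample is unknown. The intervals below cover counting error only, and since duplicate reads had been kept, which are not independent molecules, they may be too narrow.

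SLC3A2, also known as the CD98 heavy chain, is a single-pass membrane glycoprotein that carries light chain transporters to the cell surface through a disulphide bridge. With SLC7A5 (LAT1) or SLC7A8 (LAT2) it exchanges large neutral amino acids such as leucine, with SLC7A6 or SLC7A7 it exchanges cationic for neutral amino acids, with SLC7A10 it carries small neutral amino acids including serine, and with SLC7A11 (xCT) it exchanges glutamate for cystine, the precursor for glutathione. SLC1A5 (ASCT2) works without the heavy chain, taking up glutamine. Leucine brought in this way signals to mTORC1, and several of these genes are known targets of the amino acid response factor ATF4 and of MYC proteins.

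*SLC3A2* stands head to head with *SNHG1*, and the stretches of GRCh38 that the later results refer to are shown first. The first base of *SNHG1*, on the minus strand of chromosome 11, is 62855953, and the first base of *SLC3A2*, on the plus strand, is 62856004, with 50 bases between them. One guide RNA used against *SNHG1* matched chr11:62856047-62856069 with its PAM, 43 bases downstream of the *SLC3A2* gene start. There it lies in exon 1, in an untranslated part, of *SLC3A2* transcripts that begin at the gene start. The other annotated start sites at this end, 98 to 164 bases downstream of the gene start, lie beyond the target. The capitals in the guide target mark the PAM. All 4 sequences are on the plus strand, at chr11:62856047-62856069, chr11:62855954-62856003, chr11:62880713-62880862 and chr11:62881549-62881698, and the last ends at the base before an internal start site.
Guide target: ctgaacttgcggcgcgaaaaAGG
Between the genes: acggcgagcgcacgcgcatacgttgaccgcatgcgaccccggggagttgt
Canonical promoter: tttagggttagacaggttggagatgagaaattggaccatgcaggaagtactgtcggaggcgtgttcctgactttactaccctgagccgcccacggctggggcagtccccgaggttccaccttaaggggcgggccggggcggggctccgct
Internal promoter: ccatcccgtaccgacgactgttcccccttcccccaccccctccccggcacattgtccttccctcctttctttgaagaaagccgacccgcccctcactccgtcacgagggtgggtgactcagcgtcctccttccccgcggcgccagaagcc

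At *SLC3A2* (ENSG00000168003.19, chromosome 11, 62856004 to 62888880), acetylation near the edited end was lower in the sgSNHG1 list, whereas acetylation at the canonical promoter, about 25 kb downstream, was higher. Each list held 5 peaks over the gene, covering 2848 bp in sgCtrl and 2308 bp in sgSNHG1. Heights are given as the number of fragments over a peak's summit, which was recovered from the deposited fold enrichment (summit over local background) and p-value. The paper names no input control for peak calling, so the local background may itself hold acetylated chromatin around the peak. Fold enrichment may then understate broad acetylation and broad differences in it. The ratio of a pair of overlapping peaks was centred on the median of all 36946 pairs that overlapped 1 to 1, so that 0 on the log2 scale is the typical shared peak, and a change past 1.5-fold was counted. The raw log2 ratio of that typical pair was -0.19.

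The sgCtrl list held a peak upstream of the guide site, from 62855134 to 62855622 within *SNHG1*, with 76 fragments over its summit and a fold enrichment of 3.44. The sgSNHG1 list held no peak there. The peak bears on the targeted gene, since it is within 1 kb of the start of *SNHG1* and overlaps its small nucleolar RNA cluster (*SNORD22*, *SNORD25*, *SNORD26*, *SNORD27* and *SNORD28* also start within 1 kb). Its −log10 p was 19.9, and of all sgCtrl peaks between 10 and 20, 52.7% overlapped an sgSNHG1 peak. Its absence from the sgSNHG1 list is therefore no check of the targeting by itself. DNA lost between the guide sites and acetylation lost from intact DNA cannot be told apart in a peak list. Downstream of the guide site, the next peak began 158 bp beyond the expected cut in sgCtrl and 146 bp beyond it in sgSNHG1.

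That peak, over an exon of the longer transcripts (62856221 to 62856526 in sgCtrl), had 92 fragments in sgCtrl and 63 in sgSNHG1. Its centred log2 ratio was -0.35 with a 95% interval of -0.84 to 0.12, which includes 0. The neighbouring intronic peak (62856869 to 62857475) had 99 fragments in sgCtrl and 56 in sgSNHG1, a log2 ratio of -0.63 (95% interval -1.13 to -0.14), and was the only 1 of 14 member pairs to lie past 1.5-fold on the lower side. Among all such pairs 5.65% did so. The local background was lower there too, at 22.4 fragments in sgCtrl and 16.6 in sgSNHG1 under the exon peak, and at 23.6 and 16.1 under the intronic peak. In fold enrichment, which is taken against that background, the difference shrank to a centred log2 ratio of -0.10 for the exon peak and -0.25 for the intronic peak. Both peaks lie within 1 kb of the start of *SNHG1*, and the exon peak also within 1 kb of *SNORD25* and *SNORD26*, so they cannot be given to *SLC3A2* alone.

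The canonical start site of *SLC3A2*, at 62880896, lies 24833 bp from the expected cut. In sgCtrl a single peak of 1164 bp (62880966 to 62882129) began just downstream of it, with 85 fragments and a fold enrichment of 4.22. In sgSNHG1 the same stretch held a pair of peaks, 1 from 62880929 to 62881530 with 134 fragments and a fold enrichment of 6.44, and 1 from 62881764 to 62882179 with 87 fragments. The highest summits of both lists lay close together, at 25185 bp from the gene start in sgCtrl and 25183 bp in sgSNHG1. Since this is a peak against 2 peaks it is not among the 14 pairs. With the highest fragment number of each list over the cluster, the centred log2 ratio was 0.86 (95% interval 0.45 to 1.27). It stood at percentile 97.6 of all clusters of overlapping peaks, 1 to 1 pairs included. The centre here was the median of those clusters, a raw log2 ratio of -0.199. This comparison was added after the data were seen. No other gene had its start within 1 kb of these peaks, and the local background was alike, at 19.4 fragments in sgCtrl and 19.97 in sgSNHG1.

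The remaining *SLC3A2* peaks were each in 1 list. A peak over exon 9, in coding sequence at 62888395 to 62888676, had 45 fragments in sgCtrl and no counterpart in sgSNHG1. A peak beyond the 3′ end of *SNHG1*, at 62851137 to 62851716, had 51 fragments in sgSNHG1 and no counterpart in sgCtrl. Within 5 Mb of *SLC3A2*, with the gene itself left out, the median log2 ratio of 474 pairs was -0.03 (quartiles -0.26 and 0.26), so the neighbourhood as a whole was shifted neither way.

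**Figure D1:**
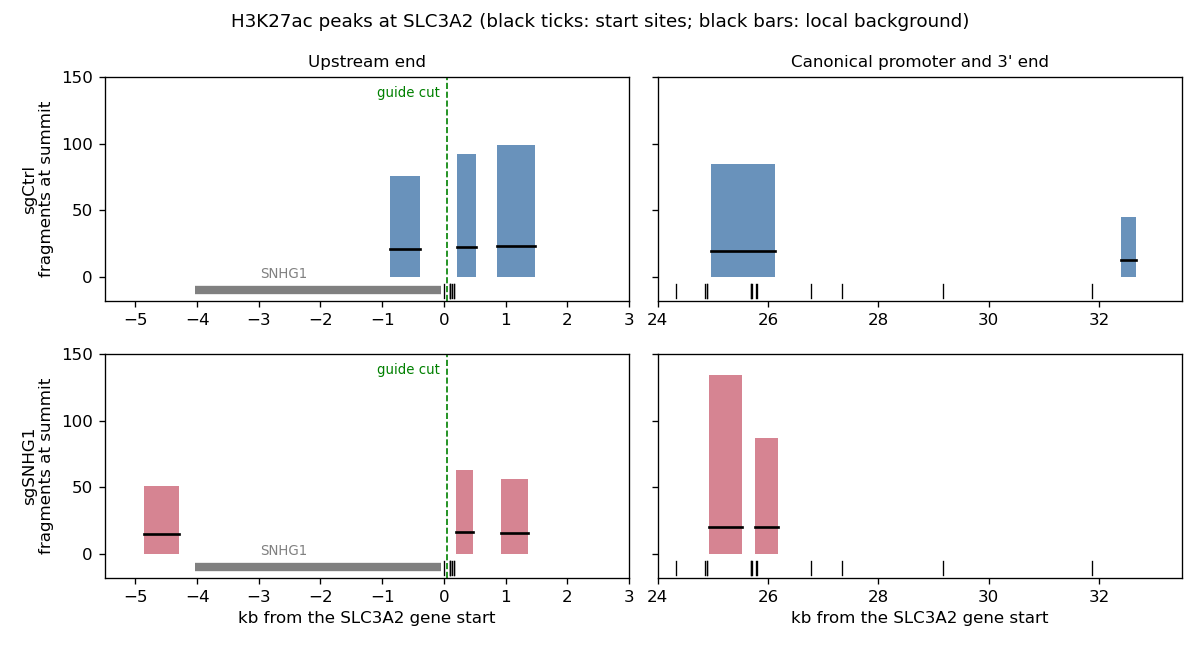
Peaks at *SLC3A2* in the sgCtrl list (top) and the sgSNHG1 list (bottom) by distance from the gene start in kb, with box height as fragments at the summit, black bars as local background, black ticks as annotated start sites, the grey bar as *SNHG1* and the dashed line as the expected guide cut. The sgCtrl peak within *SNHG1* has no counterpart, the peaks just beyond the cut fall from 92 and 99 fragments to 63 and 56, and the canonical promoter rises from 85 to 134.

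*SLC7A5* (ENSG00000103257.9, chromosome 16, 87830023 to 87869507, minus strand), which encodes the leucine transporter LAT1, carried the most peaks of the 8 genes, 13 in sgCtrl and 10 in sgSNHG1. They covered 7230 bp and 5276 bp, which placed the gene at percentile 97.2 of all protein-coding genes in both lists. The highest peak lay just inside the gene, over exon 1 (87868723 to 87869418 in sgCtrl), and had 147 fragments in sgCtrl and 147 in sgSNHG1, a centred log2 ratio of 0.19 (95% interval -0.15 to 0.53). By fold enrichment, 6.79 in sgCtrl and 6.35 in sgSNHG1, the direction turned, to a centred log2 ratio of -0.06. A second peak just upstream of the start site (87869725 to 87870060 in sgCtrl) had 59 fragments in sgCtrl and 87 in sgSNHG1, a log2 ratio of 0.75 (95% interval 0.26 to 1.26). It was the only 1 of the 14 member pairs to lie past 1.5-fold on the higher side, where 8.62% of all pairs and 14.9% of the pairs at start sites lay. It no longer lay past 1.5-fold by fold enrichment (centred log2 ratio 0.48) or with centring on start-site pairs (0.57).

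The rest of *SLC7A5* went the other way or stayed near 0. Its body and 3′ end held 11 peaks in sgCtrl with 90 to 134 fragments each, and 8 in sgSNHG1 with 80 to 98 fragments. Of the 6 pairs among them, the lowest was an intronic peak 30360 bp into the gene (87838838 to 87839332) with 134 fragments in sgCtrl and 80 in sgSNHG1, a log2 ratio of -0.55 (95% interval -0.97 to -0.14). The other 5 had ratios from -0.39 to 0.01, each with an interval that included 0.

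These body peaks were high in fragments and low in enrichment. In sgCtrl they lay between percentiles 76.6 and 90.6 of fragment number, but at or below percentile 17.2 of fold enrichment, which ran from 1.96 to 2.67. The local background under them was 37.5 to 56.4 fragments in sgCtrl and 33.4 to 42.0 in sgSNHG1, where 90% of all peaks had backgrounds below 38.8 and 32.1. Under the start-site peaks it was 19.5 to 20.8 fragments in sgCtrl and 21.1 to 22.3 in sgSNHG1. The background under the body peaks was thus lower in sgSNHG1, as their fragments were. Taken as fold enrichment, against that background, the lowest pair moved from -0.55 to a centred log2 ratio of -0.27 and the other 5 ran from -0.14 to 0.14.

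Of the 13 sgCtrl peaks of *SLC7A5*, 5 had no sgSNHG1 counterpart, with 90 to 115 fragments, where 38.5% of all sgCtrl peaks had none. The sgSNHG1 list held 2 peaks of its own, with 98 and 95 fragments, within 1 kb of the start of *MIR6775* and of the unnamed gene ENSG00000260466. Among all sgSNHG1 peaks 20.8% had no sgCtrl counterpart. The surroundings of the gene within 5 Mb had a median log2 ratio of -0.07 over 343 pairs.

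**Figure D2:**
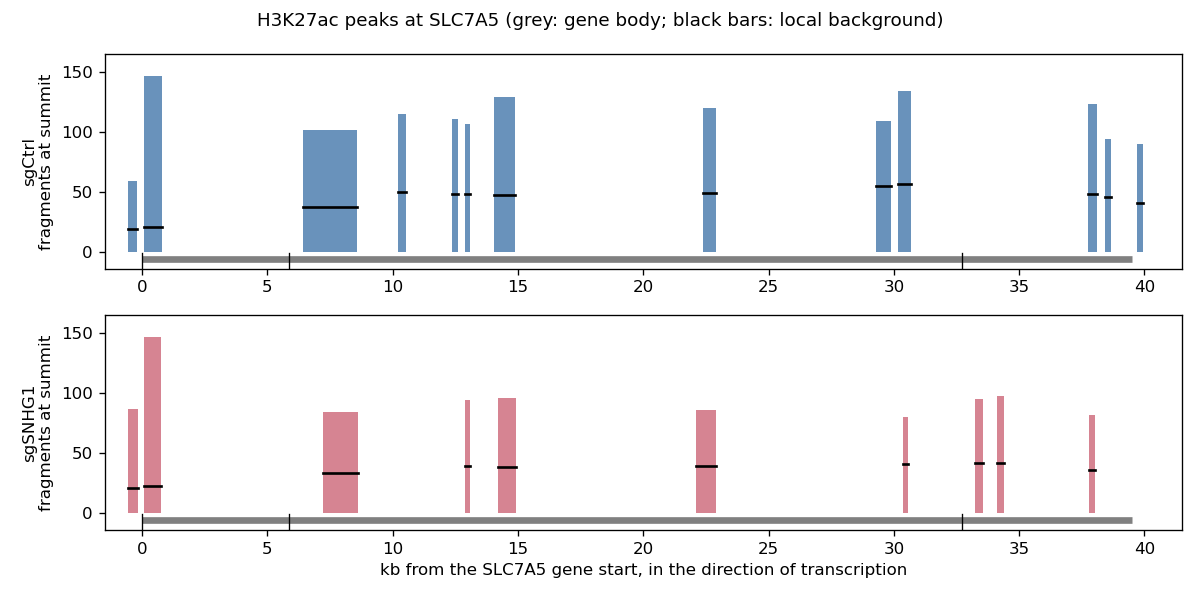
Peaks at *SLC7A5* in the sgCtrl list (top) and the sgSNHG1 list (bottom) by distance from the gene start in kb along the direction of transcription, with box height as fragments at the summit, black bars as local background, ticks as start sites and the grey bar as the gene. The start-site peak stands at 147 fragments in both lists over a background near 20, while the body peaks stand on backgrounds of 33.4 to 56.4.

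The sequence before the *SLC7A5* start site, on the minus strand at chr16:87869508-87869657, holds an E-box, CACGTG, the sequence bound by MYC family factors and marked by capitals below. It is shown because the start-site peaks flank it. The match, at 87869632 to 87869637 and 130 bases before the start site, lies in the gap between the start-site peak and the upstream peak in both lists, and so does the start site.
SLC7A5 promoter: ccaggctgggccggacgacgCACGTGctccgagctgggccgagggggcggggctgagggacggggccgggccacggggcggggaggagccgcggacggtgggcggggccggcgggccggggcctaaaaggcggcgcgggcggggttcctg

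*SLC7A6* and *SLC7A7* encode the light chains that exchange cationic for neutral amino acids. *SLC7A6* (ENSG00000103064.15, chromosome 16, 68264516 to 68301823) had 1 peak in each list, spanning its start-site cluster, with 125 fragments in sgCtrl and 150 in sgSNHG1. Its centred log2 ratio was 0.46 (95% interval 0.10 to 0.81), against a median of 0.09 over the 220 pairs within 5 Mb. The median of all pairs at start sites, 0.19, lay within that interval. With centring on those pairs the *SLC7A6* ratio was 0.27. The fold enrichment was 5.31 in sgCtrl and 6.22 in sgSNHG1, with like backgrounds of 22.7 and 23.3 fragments.

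*SLC7A7* (ENSG00000155465.21, chromosome 14, 22773222 to 22829820, minus strand) had 2 peaks in sgCtrl and 1 in sgSNHG1. The shared peak, at 22829970 to 22830334 in sgCtrl, had 45 fragments in sgCtrl and 58 in sgSNHG1, a log2 ratio of 0.56 with a 95% interval of -0.03 to 1.15 that includes 0. It lies upstream of *SLC7A7* and within 1 kb of the start of *MRPL52*, a mitochondrial ribosomal protein gene, so that it cannot be given to *SLC7A7* alone. The peak found only in sgCtrl, intronic at 22822636 to 22822904, had 25 fragments where 21 would have sufficed for a call in the sgSNHG1 list at the same background after scaling. The canonical start site of *SLC7A7*, at 22815435, had no peak in either list.

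*SLC7A10* (ENSG00000130876.11, chromosome 19, 33208664 to 33225850, minus strand), the light chain for small neutral amino acids, had 4 peaks in sgCtrl and 1 in sgSNHG1. This was the largest fall in peak number in proportion among the 6 genes with any. The 4 sgCtrl peaks were weak, with −log10 p from 8.70 to 13.4. Of all sgCtrl peaks with a −log10 p of 6 to 10, 24.5% overlapped an sgSNHG1 peak, and of those with 10 to 20, 52.7% did. The sgCtrl peak at the *SLC7A10* start site (33225479 to 33225901) had 23 fragments over a background of 4.89, which was the lowest background in that list, and 18 fragments would have been needed in sgSNHG1. Its loss is thus near the limit of detection. The sgCtrl list also held peaks with 41 fragments within the gene and with 65 downstream of it, the latter within 1 kb of the unnamed gene ENSG00000273420, and neither had a counterpart. The only shared peak lay downstream of the gene (33205368 to 33206082 in sgCtrl), with 60 fragments in sgCtrl and 48 in sgSNHG1, a log2 ratio of -0.13 (95% interval -0.71 to 0.44). Its fold enrichment was higher in sgSNHG1, at 3.48 against 2.63, since the background was 13.1 against 22.2 fragments. The promoter whose peak was present in sgCtrl alone has this sequence on the minus strand, at chr19:33225851-33225950, just before the start site.
SLC7A10 promoter: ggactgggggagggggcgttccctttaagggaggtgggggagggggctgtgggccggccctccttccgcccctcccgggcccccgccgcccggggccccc

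*SLC1A5* (ENSG00000105281.12, chromosome 19, 46774883 to 46788594, minus strand), which encodes the glutamine transporter ASCT2, had 2 peaks in each list. The start-proximal peak, over exon 1 (46787323 to 46788465 in sgCtrl), had 87 fragments in sgCtrl and 107 in sgSNHG1. Its log2 ratio was 0.49 (95% interval 0.07 to 0.92) and the median within 5 Mb was 0.07 over 199 pairs. The median of all pairs at start sites, 0.19, lay within that interval. With centring on those pairs the *SLC1A5* ratio was 0.31. The fold enrichment was 5.26 in sgCtrl and 6.47 in sgSNHG1 over backgrounds of 15.7 fragments in both. The unnamed gene ENSG00000275719 also starts within 1 kb of this peak. Each list held 1 further peak without a counterpart, with 31 fragments over exon 6 in sgCtrl and 55 fragments in an intron in sgSNHG1.

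*SLC7A8* (ENSG00000092068.21, chromosome 14, 23125295 to 23183674) and *SLC7A11* (ENSG00000151012.13, chromosome 4, 138164097 to 138242349), which encode LAT2 and the cystine exchanger xCT, had no peak in either list. Among all protein-coding genes, 77.0% had a peak in the sgCtrl list, 75.0% in the sgSNHG1 list and 20.5% in neither. A call needed at least 19 fragments in sgCtrl and 18 in sgSNHG1 where the background was lowest, so lower acetylation was not detectable at this depth. The nearest peaks to *SLC7A8* lay 30224 bp away in sgCtrl and 30206 bp away in sgSNHG1. The nearest peak to *SLC7A11* lay 74904 bp away in sgCtrl and 497003 bp away in sgSNHG1.

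Around *SLC7A11* the sgSNHG1 list held fewer and lower peaks, and this reached beyond the neighbourhood, since chromosome 4 as a whole held 2200 sgCtrl and 1274 sgSNHG1 peaks. Within 5 Mb of it lay 114 sgCtrl peaks but 55 sgSNHG1 peaks (a ratio of 0.482), and the median log2 ratio of 42 pairs was -0.56 (quartiles -0.75 and -0.29). For the other 7 genes the median ran from -0.07 to 0.16, where *SLC7A7* and *SLC7A8* share most of their surroundings. The 14 member pairs hold none from the neighbourhood of *SLC7A11*.

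**Figure D3:**
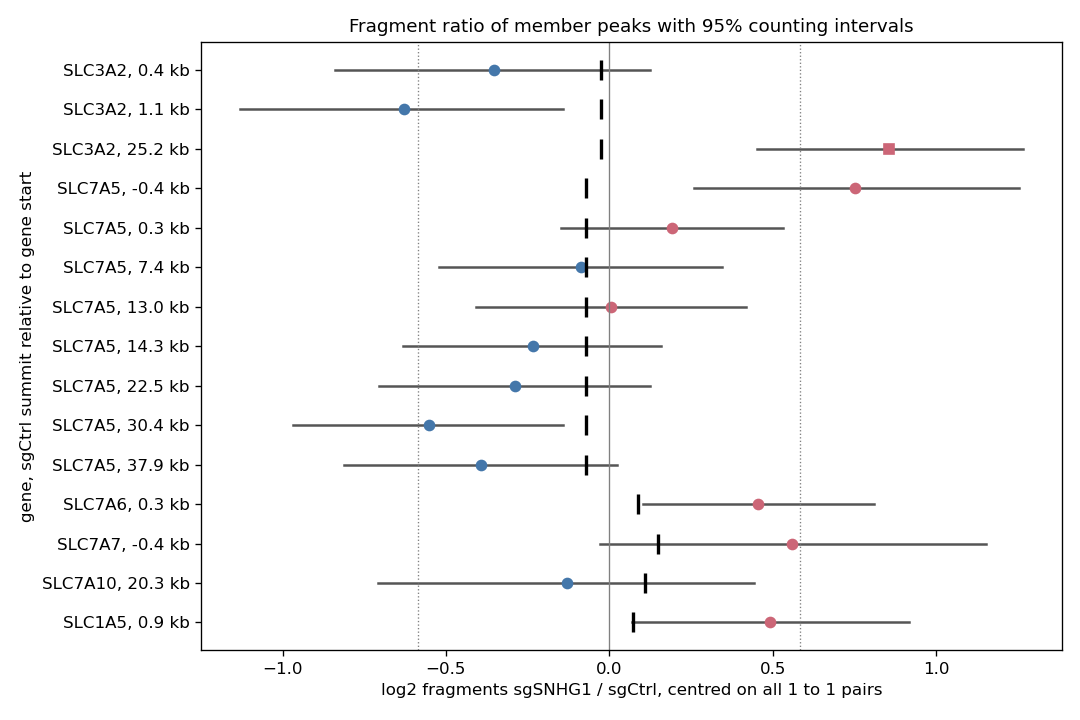
Centred log2 ratio of fragments, sgSNHG1 over sgCtrl, for the 14 member pairs (circles) and the *SLC3A2* canonical promoter cluster (square), in rows by gene and by the distance of the sgCtrl summit from the gene start in kb, with 95% counting intervals as lines. The square is centred on the median of all clusters of overlapping peaks. Black ticks mark the median of the pairs within 5 Mb of the gene and dotted lines mark 1.5-fold. The upstream *SLC3A2* peaks and the *SLC7A5* body peaks lie at or below 0.01, and the peaks at the starts of *SLC7A5*, *SLC7A6*, *SLC7A7* and *SLC1A5* lie between 0.19 and 0.75, of which the *SLC7A5* start-site peak at 0.19 turns to -0.06 by fold enrichment.

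Across the members, the 14 pairs had a median log2 ratio of -0.11 and ranged from -0.63 to 0.75. The 5th and 95th percentiles of all pairs were -0.61 and 0.71, so the members spanned about the same range as shared peaks in general. Of the 8 member pairs that came within 1 kb of any annotated start site of a protein-coding gene, 5 were above 0 and the median was 0.32. These 8 include the *SLC7A5* body pair 7445 bp into the gene (-0.09), which lies within 1 kb of an internal start site. Of the 6 elsewhere, 1 was above 0 and the median was -0.26. All pairs showed the same split, with a median of 0.19 for 15526 pairs at start sites, of which 65.7% were above 0, and of -0.11 for 21420 pairs elsewhere, of which 38.1% were. When the ratios were centred on the start-site pairs instead, 5 of the 8 and 0 of the 6 were above 0, and the calls past 1.5-fold went from 1 higher and 1 lower to 0 higher and 2 lower. Among all pairs that centring took the calls from 8.62% higher and 5.65% lower to 3.68% higher and 14.9% lower.

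Of the 27 sgCtrl member peaks, 15 overlapped an sgSNHG1 peak (55.6%, exact 95% interval 35.3 to 74.5), against 61.5% of all sgCtrl peaks. The share without a counterpart among all sgCtrl peaks was thus 38.5%. Of the 20 sgSNHG1 member peaks, 16 overlapped an sgCtrl peak (80.0%, exact 95% interval 56.3 to 94.3), against 79.2% of all, with 20.8% of all lacking a counterpart. The shared member peaks were the higher ones, as in the lists as a whole. All 8 sgCtrl member peaks with a −log10 p above 20 were shared, and the 12 unshared ones had −log10 p between 8.43 and 19.9. The members' shared fractions were near those of all peaks in the same ranges of −log10 p, which averaged 60.9% for sgCtrl and 82.9% for sgSNHG1.

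The place of each gene's highest peak within its own list was compared by the percentile of its fold enrichment. *SLC3A2* went from percentile 61.0 in sgCtrl to 84.0 in sgSNHG1, both at the canonical promoter, and *SLC1A5* from 77.5 to 84.1. *SLC7A6* went from 78.3 to 82.9 and *SLC7A7* from 78.9 to 81.4. *SLC7A5* went from 87.9 to 83.5 and *SLC7A10* from 57.9 to 38.5, its highest peak being the start-site peak in sgCtrl and the downstream peak in sgSNHG1. The order of the genes therefore differed between the lists, with *SLC7A5* highest in sgCtrl and *SLC1A5*, *SLC3A2*, *SLC7A5*, *SLC7A6* and *SLC7A7* within 81.4 to 84.1 in sgSNHG1. Whether neighbours in that order differ beyond replicate spread cannot be judged from pooled lists. The median change of the 6 genes was 3.50 percentile points, with 4 higher and 2 lower, where the median over 14503 protein-coding genes was -0.66 and 41.3% were higher. The direction depended on the setting, as the median was -2.02 with a flank of 10 kb, where *SLC7A6* (-2.91) and *SLC7A7* (-1.14) turned lower, and 11.6 with lists of equal size. *SLC7A10* turned higher with a −log10 p of 10 or more (12.1) and with lists of equal size (20.7), both of which leave out its start-site peak.

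**Figure D4:**
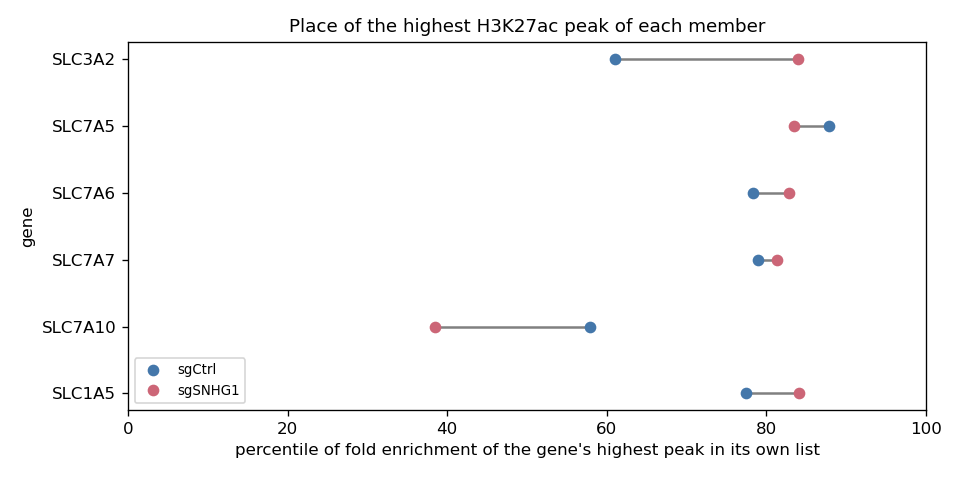
Percentile of the fold enrichment of each gene's highest peak within its own list, for sgCtrl (blue) and sgSNHG1 (red), with 1 row per gene. *SLC3A2* moves from 61.0 to 84.0, *SLC7A10* from 57.9 to 38.5, and the other 4 genes by at most 6.68 points. *SLC7A6* and *SLC7A7* turn lower with a flank of 10 kb, and *SLC7A10* turns higher without peaks of low −log10 p.

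Motifs were searched on both strands in the RefSeq promoter windows (GRCh38), which run from 250 bases before to 50 after a start site. Windows were held for 7 of the 8 genes, 16 in all, and not for *SLC7A11*. The ATF4 response element was searched as TGATGNAAN and the E-box as CACGTG, and no member window held both. TGATGNAAN matched 2 of the 16 windows and 3.61% of all 35116 windows. CACGTG matched 4 of the 16 windows, 1 each at *SLC7A5*, *SLC7A7*, *SLC7A8* and *SLC1A5*, and 7.26% of all. In windows of 301 bases at peak summits, CACGTG matched 2 of 27 sgCtrl member peaks (6.50% of all sgCtrl peaks). It matched 2 of 20 sgSNHG1 member peaks (6.25% of all). TGATGNAAN matched 1 of the 27 (1.45% of all) and 0 of the 20 (1.44% of all).

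A few of the promoter matches can be set beside the peaks. The TGATGNAAN match of *SLC3A2*, on the minus strand at 62881735 to 62881743 and 37 bases after an internal start site, lay inside the single sgCtrl peak and in the gap between the sgSNHG1 pair. The CACGTG match of *SLC1A5*, at 46787338 to 46787343, lay inside the start-proximal peak of both lists. The TGATGNAAN match of *SLC1A5*, at an intragenic start site, lay in no peak. They are printed with the match in capitals, the first on the plus strand at chr11:62881725-62881753 and the others on the minus strand at chr19:46787326-46787355 and chr19:46784893-46784921.
SLC3A2 internal start: tgcaggactcCTTACATCAgctcctctga
SLC1A5 E-box: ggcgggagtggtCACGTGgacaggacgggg
SLC1A5 intragenic start: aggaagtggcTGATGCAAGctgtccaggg

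The wider pathway was read at the highest 1 to 1 pair of each gene. Among all 13990 protein-coding genes with such a pair, 15.3% were past 1.5-fold on the higher side and 3.54% on the lower side, with a median log2 ratio of 0.22. Of the 6 members with a pair, 0 were past 1.5-fold on either side by this measure, and their median was 0.32. The highest pair was the pair with the largest geometric mean of both fold enrichments. For *SLC3A2* this took the exon pair (-0.35), nearly level with the intronic pair that lay past 1.5-fold on the lower side (-0.63), and left out the canonical promoter, which as a cluster lay past it on the higher side (0.86). Of 33 other amino acid transporters, 25 had a peak in sgCtrl and 22 in sgSNHG1. Of the 22 with a pair, 2 were higher and 1 lower, from *SLC38A6* at 0.92 to the lysosomal arginine sensor *SLC38A9* at -0.93, and the median was 0.26. *SLC1A1*, *SLC1A6* and *SLC1A7*, which encode glutamate transporters, had peaks in sgCtrl only. Among all protein-coding genes, 72.5% had peaks in both lists, 4.55% in sgCtrl only and 2.46% in sgSNHG1 only.

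The amino acid response, in which uncharged tRNA activates ATF4 through GCN2, was represented by 20 genes, all with peaks in both lists. Of the 19 with a pair, 2 were higher and 0 lower, with a median of 0.30. The highest was *NARS1*, an asparaginyl-tRNA synthetase, with 45 fragments in sgCtrl and 83 in sgSNHG1 (log2 ratio 1.08), and the lowest was *CHAC1*, which degrades glutathione, with 113 and 73 (-0.44). Of 29 genes by which amino acids signal to mTORC1, 28 had a peak in sgCtrl and 27 in sgSNHG1. Of 26 with a pair, 3 were higher and 2 lower, from *DEPDC5*, a GATOR1 subunit, at 0.77 to *SLC38A9*, with a median of 0.23. The arginine sensor *CASTOR1* had a peak in sgCtrl only.

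Of 18 genes of cystine and glutathione use, all had peaks in both lists, and of 17 with a pair 1 was higher and 0 lower, from the haem oxygenase gene *HMOX1* at 0.82 to *CHAC1* at -0.44, with a median of 0.14. Of 6 genes of glutamine use, all had peaks in both lists, and of 5 with a pair 0 were higher and 1 lower. The lowest was *GLUD1*, glutamate dehydrogenase, with 169 fragments in sgCtrl and 97 in sgSNHG1 (-0.61), the highest was *GOT2* at 0.28, and the median was 0.08. Counts of 0 to 3 genes per list and direction are too few to set a list apart from all genes.

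The labelled cell type was checked with marker genes. All 8 neuroblastoma markers (*MYCN*, *HAND2*, *GATA3*, *ISL1*, *TH*, *DBH*, *CHGA* and *NCAM1*) had peaks in both lists, and the *MYCN* peak was the highest in fragments among them, with 14812 in sgCtrl and 11551 in sgSNHG1. Among all protein-coding genes 72.5% had peaks in both lists. By fold enrichment, the highest peaks of the neuroblastoma markers ran from percentile 11.8 (*TH*) to 93.7 (*ISL1*) in sgCtrl. In sgSNHG1 they ran from 3.15 (*TH*) to 93.3 (*ISL1*). The log2 ratios of these markers ran from -0.96 at *HAND2* to 0.66 at *ISL1*. Of 8 markers of other cells, 3 had a peak in sgCtrl and 2 in sgSNHG1, and *CD3E*, *ALB*, *COL3A1* and *LUM* were among those with none. *APOA1* (3 peaks in sgCtrl and 1 in sgSNHG1) and *PTPRC* (1 in each) had peaks in both lists, *PTPRC* was the single gene with a 1 to 1 pair (0.12), and *COL1A1* had peaks in sgCtrl only. The *PTPRC* peak stood at percentile 87.8 in sgCtrl and 85.4 in sgSNHG1, within the range of the neuroblastoma markers. The check thus sets the cell types apart only in part.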

How the data were processed

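H3K27ac ChIP-seq of 2 sgCtrl and 2 sgSNHG1 samples was used. Per the study's methods, the authors trimmed adaptors, aligned reads to GRCh38 with BWA, merged the 2 samples of each group and ran MACS2 on paired fragments at p = 1e-06, with duplicates kept. The deposited lists give a fold enrichment (a ratio of summit to local background) and a −log10 p per peak. No values per replicate and no depth are in the lists, and the methods name no input control.

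Fragments at the summit were recovered from both values, assuming a pseudocount of 1 and a Poisson p. A whole number reproduced −log10 p within 0.001 for 99.93% of sgCtrl and 99.95% of sgSNHG1 peaks, and for all member peaks. Of the sgCtrl peaks, 63698 on chromosomes 1 to 22, X and Y were used. Peaks overlapping by 1 bp were paired. Intervals are exact binomial (95%). Genes came from GENCODE release 44, promoter windows from RefSeq, of which 16 of 16 were identical to the reference. Python 3.11.15 with numpy 2.4.6, pandas 2.3.3 and scipy 1.17.1 was used. Computations were tested on simulated data. The members and gene lists were chosen with earlier results of these data known. Named were all members, the highest and lowest gene of each list, genes with peaks in 1 list only if 5 or fewer, and genes starting within 1 kb of a member peak. ATAC-seq and RNA-seq were not analysed here, and 1 marker gene is not reported here.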

Additional observations from a re-analysis of the deposited data

How the results depend on the processing

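No paired analysis was possible because the authors pooled both replicates of a group before peak calling, and leaving out single replicates was therefore not run. With a −log10 p of 10 or more, with equally long lists, with no flank or with a flank of 10 kb, the ratio of member peak numbers, sgSNHG1 over sgCtrl, was 0.741 as reported and ran from 0.762 to 0.952. The shared shares of sgCtrl and sgSNHG1 were 48.1% and 65.0% with an overlap of 50% of both peaks, and 60.9% and 78.9% with a −log10 p of 10 or more, all within the intervals of the reported shares.

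The median percentile change, 3.50 points, was 11.6 with lists of equal size and -2.02 with a flank of 10 kb, which takes in 34 sgCtrl and 27 sgSNHG1 peaks. With that flank *SLC7A6* was at -2.91 and *SLC7A7* at -1.14. *SLC7A10* was at 12.1 with the stricter threshold and 20.7 with lists of equal size, since its start-site peak is then left out of sgCtrl. *SLC3A2* stayed higher in sgSNHG1 in all settings, by 9.46 to 32.3 points.

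The median log2 ratio of the 14 pairs was -0.23 scaled by the lowest background of each list and -0.29 centred on shared promoter peaks. Pairs past the fold, 1 higher and 1 lower, became 2 lower with the lowest background, 0 higher and 2 lower with promoter centring, 0 and 0 past 2-fold, 0 and 0 by fold enrichment, and 2 higher by clusters of overlapping peaks. The last 2 settings were added after seeing the data. Medians of the surroundings kept their sign within 2 Mb and 10 Mb of each gene.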
